A study of Mus musculus with 4 samples.

Results

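The genes described here encode the cytosolic translation initiation factors (eIF) and elongation factors (eEF) of mouse T cells, with the regulators that share their symbols. They were chosen by symbol alone: every gene whose symbol starts with Eif1 to Eif6, Eef1 or Eef2, leaving out pseudogenes, the eIF2 kinases (Eif2ak genes) and the sex-linked Eif2s3x and Eif2s3y. This gave 59 genes of the 25509 in the deposited table. RNA was sequenced from 2 Batf3-/- and 2 WT samples of naive CD4+ T cells sorted from spleen (CD62L high, CD44 low, CD25-negative). All samples spent 72 h in culture with TGFb, IL-4, stimulating antibodies (anti-CD3 and anti-CD28) and TL1A, a TNF-family cytokine, which together favour the interleukin 9-secreting TH9 state. The labels do not give the design of the Batf3 allele, the age of the mice or whether the replicates came from separate mice, so every p-value here reflects the scatter of these samples.

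Initiation begins when eIF2, carrying GTP and the initiator tRNA, joins eIF1, eIF1A, eIF3 and eIF5 on the small ribosomal subunit. The eIF4F complex (the cap-binding protein eIF4E, the scaffold eIF4G and the RNA helicase eIF4A) brings that subunit to the capped mRNA, and the 4E-BP proteins block eIF4E until mTORC1 phosphorylates them. In elongation, eEF1A delivers aminoacyl-tRNA, the eEF1B subunits recharge eEF1A with GTP, eEF2 moves the ribosome along the mRNA and eIF5A eases peptide bond formation at difficult sequences. T cells enlarge this machinery when they leave the resting state.

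Total estimated counts were 31098059 and 15624874 in Batf3-/- replicates 1 and 2, and 23754946 and 27285811 in WT replicates 1 and 2. Batf3 itself had 17 and 8 counts in the Batf3-/- libraries, against 1439 and 1661 in the WT libraries, so all 4 libraries carried the level their label implies. The 6 T cell markers in the table (Cd3e, Cd3d, Cd3g, Cd4, Lck and Cd28) summed to between 1628 and 1931 CPM (counts per 1e+06, scaled by TMM) per library. Markers of natural killer cells were listed at 0, and those of macrophages summed to between 0.177 and 0.519 CPM. Of B cell markers, Cd79b lay between 9.62 and 13.1 CPM and Ms4a1 was listed at 0. Dendritic cell markers summed to between 1.75 and 2.33 CPM, CD8 chains to between 7.31 and 9.09 CPM and red cell globins to at most 0.142 CPM. WT replicate 1 stood apart: over the tested genes its correlations in log2 CPM (0.971 to 0.976) were below those of every pair without it (0.981 to 0.982). The replicates also differed in Xist, the RNA of the inactive X chromosome, which stood at 0.0944 and 144 CPM in Batf3-/- replicates 1 and 2 and at 0.214 and 166 CPM in WT replicates 1 and 2. With such a gap, replicates 1 and 2 of a genotype cannot be the same RNA sequenced again.

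With genotype as the only term, no translation factor gene passed edgeR's test of Batf3-/- against WT cells over all genes. Most differed by far less than 2-fold. Of the 59 genes, 56 had enough counts to be tested, and 0 passed at an adjusted p under 0.05 in edgeR's quasi-likelihood test, where 0.132% of all 12135 tested genes passed (0.0824% higher and 0.0494% lower in Batf3-/- cells). In these bulk samples, fewer cells of a type and less RNA per cell cannot be told apart. At an unadjusted p under 0.05 there were 2, Eif5a2 and Eif4ebp3, against 4.8% of all tested genes. DESeq2 called Eif5a2, beside 0.239% of all tested genes, and limma-voom called Eif4ebp3, beside 0.132%. Eif4ebp3 had 0 counts in both WT libraries. It entered the tests, and the counts of genes below, only through the Batf3-/- libraries. Between the genotypes, 24 genes had a positive and 32 a negative log2 fold change (48.4% of all tested genes were positive), and the median was -0.03, against -0.01 over all tested genes. The libraries of the genotypes did not overlap for 16 of the 56 genes, with 13 higher and 3 lower in Batf3-/- cells, where 33.8% of all tested genes did not overlap (18.2% higher and 15.6% lower).

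Each gene's 95% interval gave a range for its change, from 2 libraries per genotype. The intervals hold for each gene taken alone, not for all genes jointly. Apart from Eif5a2 and Eif4ebp3, the other 54 genes had log2 fold changes between -0.37 and 0.37, and their 95% intervals ran from -0.83 at the lowest to 0.83 at the highest. For these 54 genes a 2-fold difference in either direction therefore lay outside the interval, while smaller differences could lie inside it. The median standard error over the tested translation factor genes without Eif4ebp3 was 0.20 on the log2 scale.

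**Figure D1:**
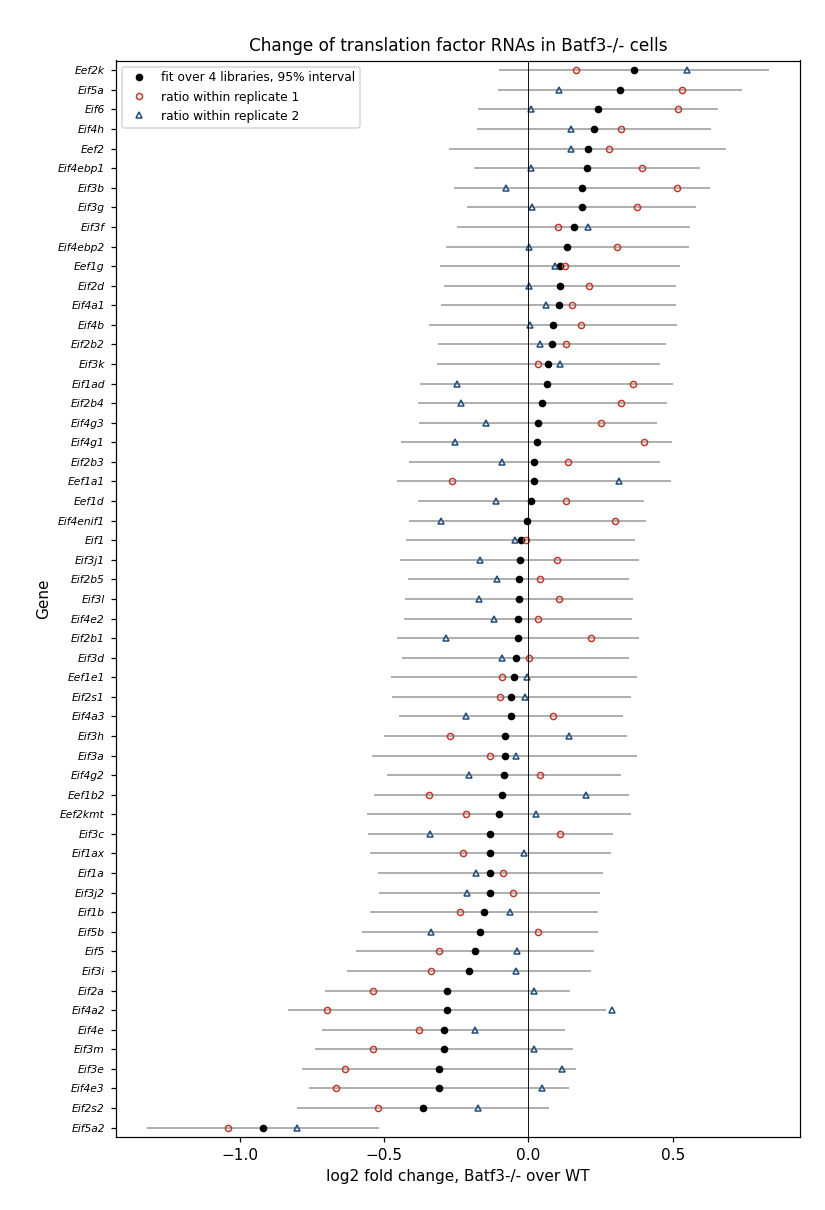
The plot shows log2 fold changes (Batf3-/- over WT, horizontal axis) of 55 translation factor genes, ordered by value; black points with lines are the edgeR estimate with its 95% interval, red circles and blue triangles the ratios within replicates 1 and 2. Eif5a2 at the bottom, at -0.92, is the only one of these genes whose interval lies wholly on 1 side of 0; Eif4ebp3, with 0 counts in WT, is left out.

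Elongation factors were the most abundant members. Eef1a1 (GRCm38 chromosome 9, 78478449 to 78489151), which encodes the tRNA-delivering eEF1A1, took 2.02% and 2.30% of all counts in Batf3-/- replicates 1 and 2 and 2.33% and 1.88% in WT replicates 1 and 2. Its normalised level was 19779.7 and 23229 CPM in Batf3-/- cells, against 23742 and 18675 CPM in WT cells. The ranges overlapped, with both genotypes spanning about the same levels (log2 fold change 0.02, SE 0.226, edgeR adjusted p = 0.991). All 59 genes together took between 4.37% and 4.83% of counts per library.

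Eef2 (chromosome 10, 81176631 to 81182498), the translocation factor, had 7212 and 9180.4 CPM in Batf3-/- cells, against 5945 and 8280.4 CPM in WT cells (log2 fold change 0.20, SE 0.229, edgeR adjusted p = 0.958). The lowest of these values was WT replicate 1, and the other 3 libraries overlapped. Eef2k, which encodes the kinase that inactivates eEF2, had 19.5 and 26.7 CPM in Batf3-/- cells, against 17.4 and 18.3 CPM in WT cells, with the highest value in Batf3-/- replicate 2 (log2 fold change 0.37, 95% interval -0.10 to 0.83). Eef2kmt, for the lysine methyltransferase of eEF2, lay between 19.7 and 25.7 CPM in all libraries.

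Levels of different genes can be compared per length, here as CPM per kilobase of the longest protein-coding transcript, a scale set by the transcript chosen. On that scale Eef1a1 averaged 11904 over the 4 libraries and Eef2 2478. The ratio of Eef1a1 to Eef2 was 4.72 and 4.36 in Batf3-/- libraries and 6.88 and 3.88 in WT libraries, so the spread within WT covered the Batf3-/- values. Below them came Eif5a at 888, Eef1g, the eEF1B gamma subunit, close to it, Eef1b2, the nucleotide exchange subunit eEF1B alpha, at 638, and Eif4a1 at 619 CPM per kilobase. Libraries of Eif5a (717 to 1037) overlapped those of Eef1g (806 to 923) and those of Eef1b2 (547 to 770). Those of Eef1b2 also overlapped those of Eif4a1 (584 to 648). The order within each of these overlapping pairs is therefore not resolved. Eef1d, the eEF1B delta subunit, averaged 74.9 and Eef1e1, known as a scaffold of the multi-tRNA synthetase complex, 23.7 CPM per kilobase. Eef1a2, the paralog known from muscle and brain, was listed at 0 in all libraries, as were Eif4e1b, an eIF4E paralog known from oocytes, and Eif2c5, a locus annotated as a long noncoding RNA.

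**Figure D2:**
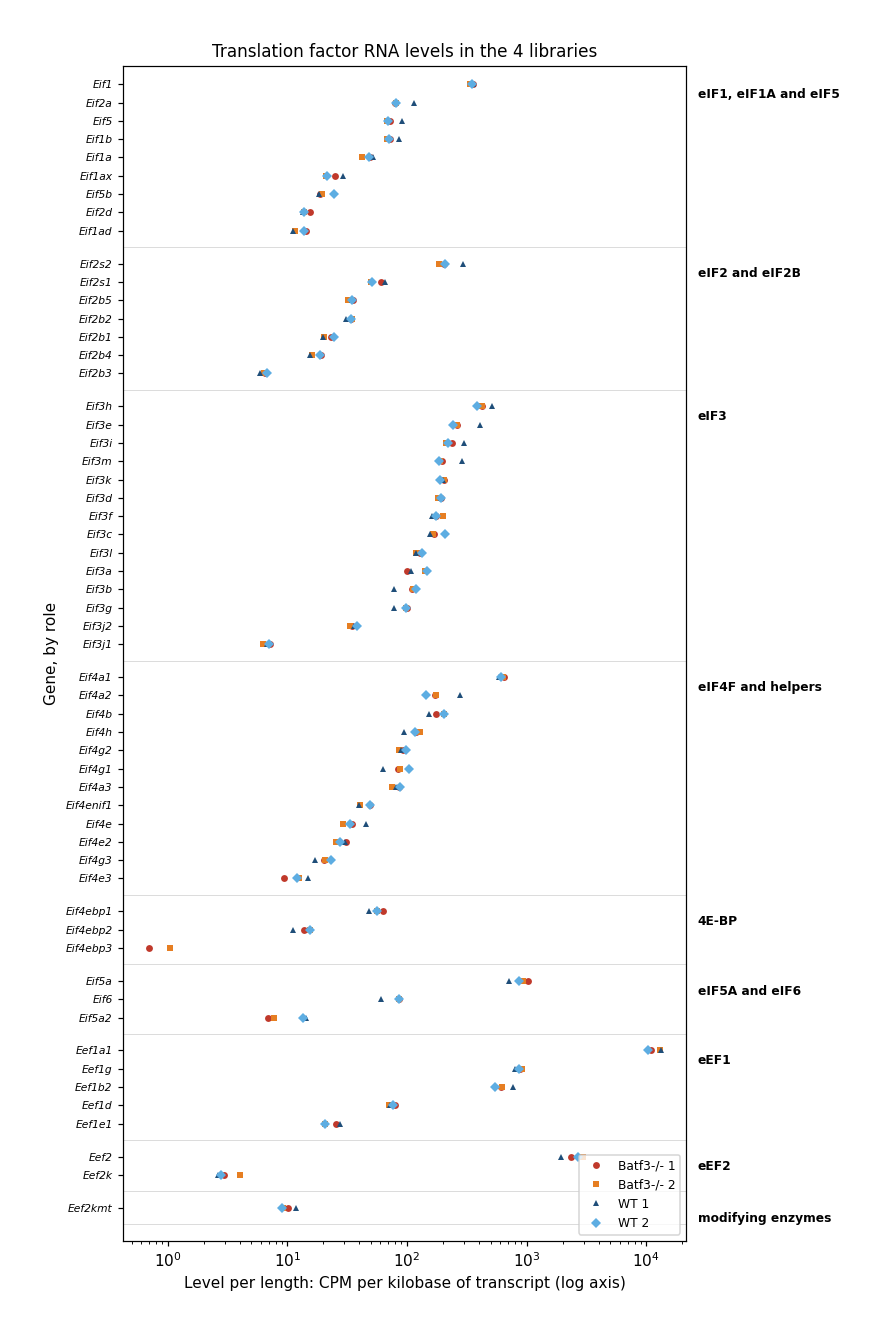
The plot shows the level per length (CPM per kilobase of transcript, log axis) of the 56 tested genes in each of the 4 libraries, grouped by role and ordered by mean within a role. Eef1a1 lies highest at about 11904 and Eif4ebp3 lowest, with points only for the Batf3-/- libraries.

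The 14 genes of eIF3, the large scaffold complex that holds the initiation factors on the small subunit, were all tested. Their log2 fold changes ran from -0.31 to 0.19 with a median of -0.06, and were positive for 4 and negative for 10. Per length, 12 of the 14 lay between 93.9 (Eif3g) and 437 (Eif3h) CPM per kilobase. The other 2 encode the loosely bound subunit eIF3j and lay lower, with Eif3j2 at 35.7 and Eif3j1 at 6.83. The ratio of Eif3h to Eif3a, the largest subunit, was 3.64 ± 0.902 in Batf3-/- and 3.67 ± 1.46 in WT cells (SD, n = 2 each).

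Among eIF3 genes the widest gap between libraries lay within WT. Eif3e had 396 and 395 CPM in Batf3-/- cells, against 615 and 365 CPM in WT replicates 1 and 2. Eif3m had 254 and 241 CPM in Batf3-/- cells, against 370 and 238 CPM in WT cells. For both genes WT replicate 1 was high and the other 3 libraries lay close together. Eif3b ran the other way, with 327 and 332 CPM in Batf3-/- cells and 229 and 350 CPM in WT cells.

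The eIF2 and eIF2B group, which supplies the initiator tRNA and its nucleotide exchange factor, had 7 tested genes, of which 3 had a positive log2 fold change and 4 a negative one (median -0.03). Eif2s2, the eIF2 beta subunit, had 524 and 472 CPM in Batf3-/- cells, against 751 and 532 CPM in WT cells. All WT values lay above all Batf3-/- values, with WT replicate 1 highest (log2 fold change -0.37, 95% interval -0.80 to 0.07, edgeR adjusted p = 0.958). Eif2s1, the alpha subunit whose phosphorylation throttles initiation, had 207 and 171 CPM in Batf3-/- cells and 222 and 173 CPM in WT cells. The 5 eIF2B genes were the lowest of this group per length, from 6.39 (Eif2b3) to 34.3 (Eif2b5) CPM per kilobase, and their log2 fold changes lay between -0.04 and 0.08.

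The 9 genes of the scanning and subunit-joining factors (eIF1, eIF1A, eIF5, eIF5B and the related initiator tRNA factors eIF2A and eIF2D) showed log2 fold changes from -0.28 to 0.11 (median -0.13), with 2 above and 7 below 0. Eif1, which guards start codon choice, was the highest of them per length at 351 CPM per kilobase. It had 471 and 447 CPM in Batf3-/- cells and 474 and 462 CPM in WT cells, a difference within the replicate spread. Eif2a had 181 and 188 CPM in Batf3-/- cells, against 263 and 185 CPM in WT cells, again with WT replicate 1 alone high. Eif1ad, an eIF1A-related gene and the lowest of the group per length, had 37.0 and 29.5 CPM in Batf3-/- cells and 28.8 and 35.1 CPM in WT cells. Eif5, the GTPase activator of eIF2, had 295 and 275 CPM in Batf3-/- cells and 365 and 282 CPM in WT cells.

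In the eIF4F group, the median log2 fold change was -0.02, positive for 5 and negative for 7 of the 12 tested genes. Eif4a1, the main helicase gene, had 1149 and 1128 CPM in Batf3-/- cells, against 1036 and 1082 CPM in WT cells. Eif4e, the cap-binding protein, had 174 and 147 CPM in Batf3-/- cells, against 227 and 167 CPM in WT cells (log2 fold change -0.29, 95% interval -0.71 to 0.13). Eif4g1, the main scaffold, had 471 and 497 CPM in Batf3-/- cells, inside the WT values of 357 and 592 CPM. Per kilobase of the longest transcript, Eif4a1 exceeded Eif4e 18.6-fold and 21.6-fold in Batf3-/- libraries and 12.8-fold and 18.2-fold in WT libraries. The size of that ratio rests on the transcript chosen. The longest Eif4e transcript has 4991 bases and the median protein-coding one 856, whereas both are 1774 for Eif4a1. On the same scale Eif4a1 exceeded Eif4g1 7.76-fold and 7.21-fold in Batf3-/- libraries and 9.23-fold and 5.80-fold in WT libraries. This ratio rests on the transcript too: the longest Eif4g1 transcript has 5638 bases and the median protein-coding one 2848.5.

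The 4E-BP genes encode the repressors of eIF4E. Eif4ebp1 had 127 and 112 CPM in Batf3-/- cells, against 96.6 and 111 CPM in WT cells (log2 fold change 0.20, SE 0.187). Eif4ebp2 had 79.4 and 90.2 CPM in Batf3-/- cells and 64.2 and 90.1 CPM in WT cells. Per kilobase of the longest transcript, the ratio of Eif4ebp1 to Eif4e was 1.82 and 1.91 in Batf3-/- libraries, against 1.06 and 1.67 in WT libraries. These did not overlap, but the WT libraries lay farther apart than the group means of 1.86 and 1.36. A ratio above 1 rests on the length of 4991 bases used for Eif4e. In CPM with no length, Eif4ebp1 lay below Eif4e in every library (Eif4e at 174 and 147 CPM in Batf3-/- and 227 and 167 CPM in WT cells).

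Eif4ebp3 was detected in Batf3-/- libraries alone, near the detection limit. It had 16.47 and 11.94 estimated counts in Batf3-/- cells and 0 in both WT libraries. With each WT library set to the floor of 3 counts, the difference came to 5.42-fold. That floor covers counting error and not the division of reads between loci, so it sets no lower limit. Eif4ebp3 entered the test only through the Batf3-/- libraries, and its edgeR adjusted p was 0.261, against 0.00826 in limma-voom. The fractional counts show that reads were divided between loci: with those of Ankhd1, which lies just upstream, they added up to whole numbers, 3145 and 1861, in the Batf3-/- libraries. Its level is therefore uncertain.

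Eif5a2 had the smallest p of the 56 genes. It encodes the minor paralog of eIF5A, which carries the modified lysine hypusine. Eif5a2 (chromosome 3, 28781276 to 28798846) had 34.8 and 38.7 CPM in Batf3-/- cells, against 71.5 and 67.5 CPM in WT cells. The genotypes did not overlap, and the gap between them was far wider than that between replicates. Its level averaged 36.8 ± 2.80 CPM in Batf3-/- and 69.5 ± 2.85 CPM in WT cells (SD, n = 2 each), 0.528 of WT in the fit. The log2 fold change was -0.92 (SE 0.192, 95% interval -1.32 to -0.52). With genotype as the only term, Eif5a2 missed the threshold over all genes in edgeR (adjusted p = 0.0733) while passing in DESeq2 (adjusted p = 0.00329). Over all settings tried it passed in 5 of 13 alternatives. Among these was edgeR with the replicate number as a block (adjusted p = 0.000342), a fit with 1 residual degree of freedom. Taken by replicate number, Batf3-/- over WT came to -1.04 (replicate 1) and -0.80 (replicate 2) on the log2 scale, so both pairs of libraries had the lower value in Batf3-/- cells.

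Eif5a, the abundant paralog (chromosome 11, 69916714 to 69921958), had 1490 and 1339 CPM in Batf3-/- cells, against 1030.2 and 1243 CPM in WT cells. All Batf3-/- values lay above all WT values, yet the difference did not pass (log2 fold change 0.32, SE 0.202, 95% interval -0.11 to 0.74, edgeR adjusted p = 0.958). By replicate number the log2 difference was 0.53 (replicate 1) and 0.11 (replicate 2). Eif6, which keeps the large ribosomal subunit from joining early, had 129 and 128 CPM in Batf3-/- cells, against 90.3 and 128 CPM in WT cells.

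**Figure D3:**
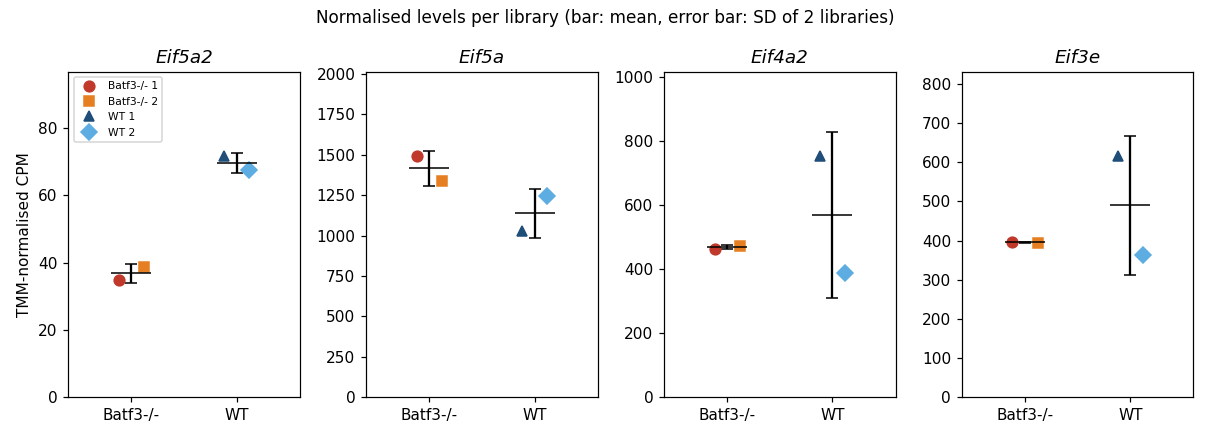
Each panel shows normalised CPM (vertical axis, from 0) of 1 gene in the 4 libraries, with the mean and SD of each genotype. For Eif5a2 the Batf3-/- libraries (34.8 and 38.7) lie well below the WT libraries (71.5 and 67.5), whereas for Eif4a2 and Eif3e WT replicate 1 alone stands above the other 3.

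The promoters of these genes were read for motifs of factors relevant to the comparison and to the pathway: the E-box CACGTG, bound by MYC and related factors, the AP-1 motif TGANTCA, bound by BATF-family dimers, and the cyclic AMP response element TGACGTCA. Each was searched on both strands from 250 bases before to 50 after the RefSeq starts (GRCm38.p6), and 45 of the 59 genes matched by symbol. The E-box was present for 12 of the 45 (26.7%), against 8.09% of all 27025 genes in that table and 11.9% of the 9162 tested genes that matched. AP-1 was present for 4 (8.89%, against 8.97% of all genes and 5.81% of tested genes). The cyclic AMP response element was present for 1, Eef2 (2.22%, against 2.03% of all genes and 3.82% of tested genes). Neither Eif5a2, the gene with the smallest p, nor the abundant Eef2 and Eif4a1 passed edgeR's test with genotype as the only term. The 3 promoters below belong to these genes and hold E-boxes. They are the 250 bases before the start, on the gene's strand, with E-boxes in capitals:
Eif5a2, plus strand, chr3:28781027-28781276: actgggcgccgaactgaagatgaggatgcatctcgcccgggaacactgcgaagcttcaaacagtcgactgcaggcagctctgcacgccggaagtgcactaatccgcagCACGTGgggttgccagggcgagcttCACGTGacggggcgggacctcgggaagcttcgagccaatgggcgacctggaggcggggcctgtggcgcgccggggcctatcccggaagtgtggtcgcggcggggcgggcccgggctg
Eef2, plus strand, chr10:81176381-81176630: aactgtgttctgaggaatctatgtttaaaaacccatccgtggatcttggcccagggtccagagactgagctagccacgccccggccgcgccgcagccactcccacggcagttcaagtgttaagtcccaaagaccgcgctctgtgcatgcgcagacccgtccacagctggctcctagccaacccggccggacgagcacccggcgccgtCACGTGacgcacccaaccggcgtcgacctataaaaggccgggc
Eif4a1, minus strand, chr11:69672424-69672673: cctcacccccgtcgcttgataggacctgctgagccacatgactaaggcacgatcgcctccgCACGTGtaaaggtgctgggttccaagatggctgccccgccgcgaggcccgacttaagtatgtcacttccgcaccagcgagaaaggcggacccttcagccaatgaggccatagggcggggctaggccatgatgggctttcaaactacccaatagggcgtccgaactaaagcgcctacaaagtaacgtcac

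In these windows Eif5a2 holds 2 E-boxes, whose first bases lie 142 and 117 bases before the start, Eef2 holds 1 at 43 bases before and Eif4a1 holds 1 at 189 bases before. None of the 3 windows holds the AP-1 motif, and the cyclic AMP response element of Eef2 lies in the 50 bases after the start, which are not shown. Myc, whose product binds E-boxes, had 298 and 272 CPM in Batf3-/- cells, against 194 and 324 CPM in WT cells (log2 fold change 0.14, SE 0.223), with the WT libraries spanning the Batf3-/- values.

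Differences between the genotypes moved with the GC content of the transcripts and with WT replicate 1. Across 55 genes (without Eif4ebp3) the log2 fold change correlated with transcript GC at r = 0.66, and at 0.43 over all 12105 tested genes with a GC value. Genes are not independent replicates, and all points share the same 4 libraries. Of the 27 tested genes under 50% GC, 5 had a positive log2 fold change (median -0.13), whereas 19 of the 29 at or above 50% GC did (median 0.06). Over all tested genes the positive shares were 23.9% and 71.7%. The correlation was 0.68 for ratios within replicate 1 and 0.18 within replicate 2.

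WT replicate 1 was the highest or lowest library for 45 of the 56 genes, against 65.7% of all tested genes. The WT replicates differed by more than 0.4 on the log2 scale for 21 of the 56, against 35.4% of all tested genes. The widest such gaps were those of Eif4a2 (753 and 388 CPM in WT replicates 1 and 2, at 40.2% GC), Eif3e (40.3% GC) and, in the other direction, Eif4g1 (54.2% GC). The median absolute log2 difference between replicates was 0.14 in Batf3-/- and 0.31 in WT over these 56 genes, and 0.19 in Batf3-/- and 0.29 in WT over all tested genes. The GC correction takes out each library's trend on GC by design, and the correlation was then 0.03. In that fit the log2 fold changes of the 54 genes other than Eif5a2 and Eif4ebp3 lay between -0.27 and 0.37. Eif5a2, at 38.8% GC the lowest of these 56 genes, then stood at -0.69 (SE 0.181, edgeR adjusted p = 0.426), still the most negative value among them. Eif5a stood at 0.19 in the same fit, in which edgeR called 0 of the 56 genes and 0.0824% of all tested genes.

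**Figure D4:**
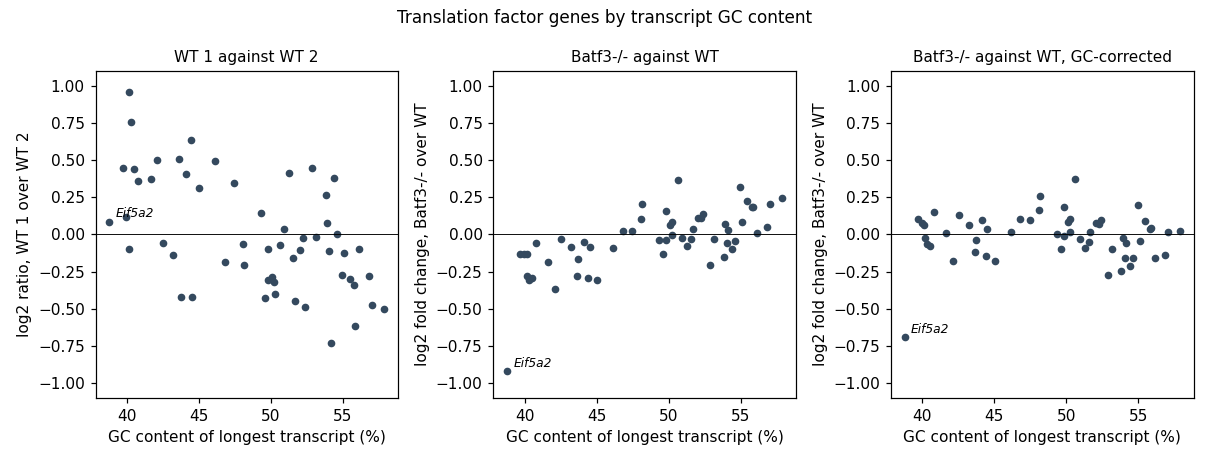
Each point is 1 of 55 translation factor genes, by the GC content of its longest transcript (%, horizontal axis) and, from left to right, its log2 ratio of WT replicate 1 to 2, its log2 fold change in Batf3-/- over WT, and that fold change after the GC correction. The correction takes out the slope of the middle panel (r = 0.66) by design. On the right r is 0.03, and Eif5a2 still lies apart there at -0.69.

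Without WT replicate 1, edgeR called 1 of the 56 genes, Eif5a2 (log2 fold change -0.89, adjusted p = 0.00694), beside 0.495% of all tested genes. Without WT replicate 2 it called 6, beside 4.46% of all genes: Eif5a2 (-0.96), Eif4a2 (-0.68), Eif3e (-0.64), Eif2s2 (-0.59), Eif3m (-0.58) and Eef2 (0.46). In each case 1 WT library was left, and its spread was taken from the Batf3-/- libraries. With all but WT replicate 1 kept, Eif4a2 stood at 0.27 and Eif3e at 0.11, the other sign. Without Batf3-/- replicate 1 or 2, edgeR called 0 of the genes (0.146% and 0.303% of all tested genes), and Eif5a2 stood at -0.84 (adjusted p = 0.9998) and -0.995 (adjusted p = 0.381).

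Paralog usage was compared as the share of each paralog in the summed per-length level of its set. The length was that of the longest protein-coding transcript, and the size of each share depends on that choice. Over the sets, 19 shares varied between libraries and were tested with an exact two-sided permutation test, which cannot go below p = 0.333 with 2 libraries against 2; adjusted values ran from 0.905 to 1 (Benjamini-Hochberg). The genotypes overlapped for most shares, the exceptions being Eif4e2, Eif4g3, Eif4ebp3 and both paralogs of the eIF5A and eIF3j sets. Each exception had exact p = 0.333, and in CPM 33.8% of all tested genes did not overlap. Where a set has 2 paralogs, their shares mirror each other. Eif4e2 was an exception only by 37.79% in Batf3-/- replicate 2 against 37.78% in WT replicate 2. Eif5a2 made up 0.663% and 0.820% of eIF5A RNA in Batf3-/- libraries, against 1.95% and 1.53% in WT libraries (exact p = 0.333). Its share was lower in every Batf3-/- library, and the ratio of Eif5a to Eif5a2 was 135 ± 20.5 in Batf3-/- and 57.4 ± 9.93 in WT cells (SD, n = 2 each).

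In the eIF4A set, Eif4a2, the helicase paralog often found in quiescent cells, made up 21.0% and 21.6% in Batf3-/- libraries, against 32.3% and 19.0% in WT replicates 1 and 2. Only WT replicate 1 departed from the rest. In the eIF4E set, Eif4e made up 46.2% and 43.7% in Batf3-/- libraries and 49.97% and 45.7% in WT libraries. Eif4e2, a cap-binding paralog known from translational repression, made up 39.6% ± 2.49 in Batf3-/- and 35.7% ± 2.98 in WT cells, and Eif4e3 made up 15.5% ± 4.25 in Batf3-/- and 16.5% ± 0.0285 in WT cells (SD, n = 2 each).

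Eif4g2 lacks the eIF4E-binding part of the other scaffolds. Per kilobase of the longest transcript it made up 45.6% ± 2.17 in Batf3-/- and 48.2% ± 6.56 in WT cells. Eif4g1 made up 43.9% ± 1.87 in Batf3-/- and 41.7% ± 6.41 in WT cells. That near equality rests on the lengths used (7995 bases for Eif4g2, 5638 for Eif4g1). The median protein-coding transcripts have 752.5 and 2848.5 bases. With no length, Eif4g2 averaged 712 CPM in Batf3-/- and 755 CPM in WT cells, against 484 and 474 CPM for Eif4g1. Eif4g3 held 10.5% ± 0.292 in Batf3-/- and 10.1% ± 0.152 in WT cells. Eif1 held 83.1% and 83.3% of its set in Batf3-/- libraries and 80.8% and 83.1% in WT libraries, and the rest was Eif1b. In the eIF1A set, Eif1a held 66.5% ± 0.288 in Batf3-/- and 66.6% ± 3.57 in WT cells against the X-linked Eif1ax. Eif4ebp1 held 79.3% ± 3.07 of 4E-BP RNA in Batf3-/- and 79.8% ± 2.24 in WT cells. Eif3j2 held 83.4% ± 0.997 in Batf3-/- and 84.4% ± 0.258 in WT cells (SD, n = 2 each in this set and those above). Eif1, Eif1a, Eif3j1, Eif3j2, Eif4a2, Eif4e3, Eif4ebp3 and Eef1a1 were among 15 genes with fractional counts. Reads shared with other loci make the shares in their sets uncertain.

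**Figure D5:**
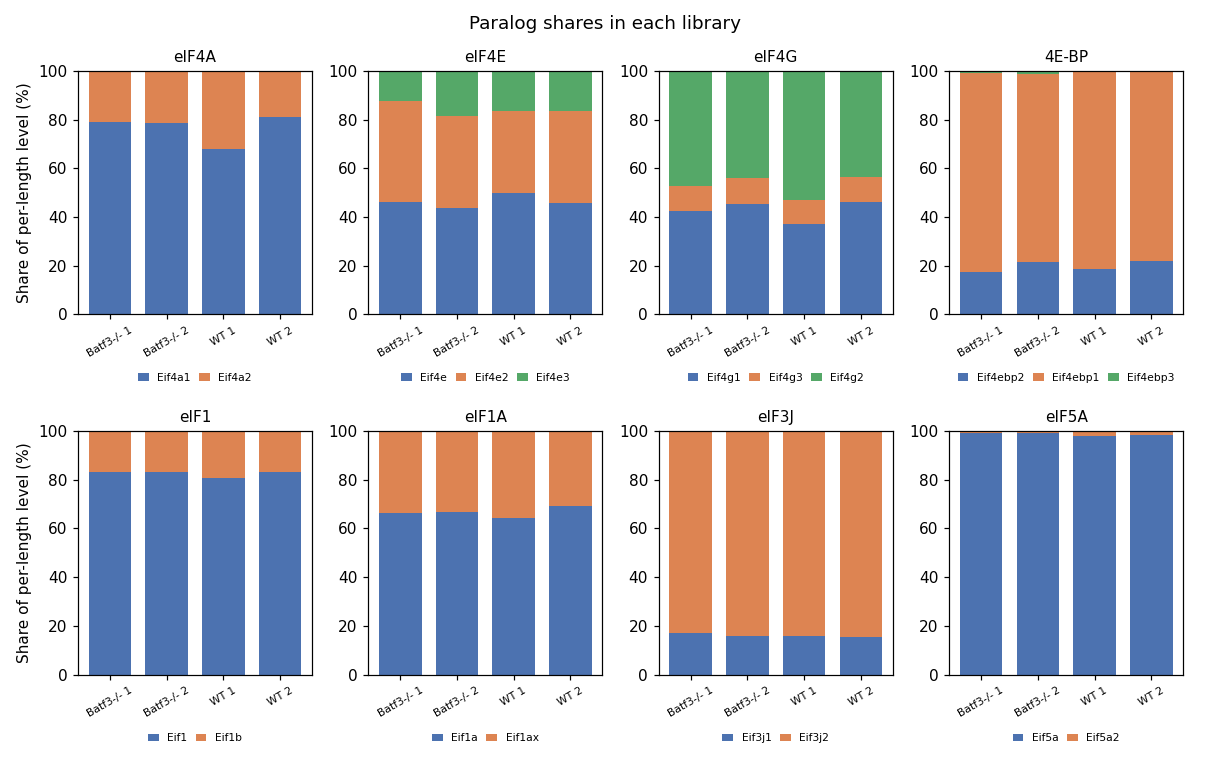
Stacked bars give, for each library, the share (%) of every detected paralog in the summed per-length level of its set. WT replicate 1 stands apart in the eIF4A set (Eif4a1 at 67.7%) and the eIF4G set (Eif4g2 at 52.8% and Eif4g1 at 37.2%); the thin Eif4ebp3 cap (0.894% and 1.43%) is present in the Batf3-/- libraries alone, and the thin Eif5a2 cap is thicker in the WT libraries.

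Other genes of the pathway were followed in 6 lists with 58 tested genes. None passed over all genes in edgeR, DESeq2 or limma-voom, while edgeR's unadjusted p was under 0.05 for 2 of the 58, Mknk2 and Dph1, where 4.8% of all tested genes had one. List medians lay between -0.10 and 0.07. The mTORC1 and cap regulation list had 9 of 13 genes positive (median 0.07). In it Mknk2, a kinase that phosphorylates eIF4E, had 367 and 453 CPM in Batf3-/- cells, against 226 and 350 CPM in WT cells (log2 fold change 0.51, SE 0.219, edgeR adjusted p = 0.958). The diphthamide and hypusine synthesis list, whose enzymes modify eEF2 and eIF5A, had 6 of 9 positive (median 0.00). Dph1, which starts diphthamide synthesis on eEF2, had 10.1 and 8.66 CPM in Batf3-/- cells, against 4.93 and 6.32 CPM in WT cells (log2 fold change 0.74, SE 0.269, edgeR adjusted p = 0.835). The hypusine enzymes Dhps and Dohh stood at log2 fold changes of 0.00 and 0.37. Positive members numbered 4 of 9 for the mitochondrial translation factors, 5 of 11 for termination, recycling and rescue, 2 of 6 for the eIF2 kinases and phosphatase subunits, and 3 of 10 for mRNA-binding and scanning helpers.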

How the data were processed

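The deposited table holds RSEM expected counts per gene (estimated counts that divide shared reads). Libraries were polyadenylated and stranded, per the labels' protocols; STAR 2.5.0, RSEM 1.2.25 and build GRCm38 appear per the submitters' processing notes. Strand setting and annotation release: not given in the sources used here. Overlapping antisense genes may therefore share reads. The 92 spike-in entries held 0 counts and were left out. Genotypes and replicate numbers came from the labels. Replicates differed beyond sampling noise (chi-square per degree of freedom 22.8 in Batf3-/- and 63.0 in WT).

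Counts were rounded and tested over all genes in R 4.3.3 with edgeR 4.0.16 (filterByExpr, minimum count 10; TMM; robust glmQLFit, glmQLFTest, two-sided, genotype as the only term), with Benjamini-Hochberg adjustment at 0.05. The pipeline was tested on simulated data. CPM are TMM-normalised from unrounded counts; ratios within replicates add 0.5 counts; the floor is 3 counts and covers counting error only. Lengths, positions and GC came from GENCODE M21 (GRCm38), matched for all 59 genes. The GC correction used offsets from a lowess trend per library.

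The genes, lists and settings were chosen with earlier results of these data known. Named in full were the 8 genes with the smallest p, the highest and lowest per length in each role, and the paralog sets; other genes were named after their values were seen. Alternatives were DESeq2 1.42.0, limma-voom 3.58.1, other scalings, filters and lengths, a replicate term, the GC correction and leaving out each library.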

Additional observations from a re-analysis of the deposited data

How the results depend on the processing

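Over all genes, edgeR called 16 (10 higher and 6 lower in Batf3-/- cells). The count was 29 in DESeq2, 10 after the GC correction, and between 18 and 553 when 1 library was left out (38 without Batf3-/- replicate 2, 62 without WT replicate 1, 553 without WT replicate 2). The replicate numbers, and a title prefix that goes with them, are shared between genotypes, and Xist was near 0 in replicate 1 and high in replicate 2 of both, but the labels do not say what the numbers mark. Differences between replicates correlated at 0.11 between the genotypes across genes. With the replicate number as a block, 112 genes passed, and 89 with the block and the GC correction together; in both fits Eif5a2 (adjusted p = 0.000342 and 0.00305) and Eif4ebp3 (adjusted p = 0.0152 and 0.0360) were the translation factor genes that passed. That fit had 1 residual degree of freedom, and the prior on the spread was infinite for most genes.

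The median log2 fold change of the translation factor genes lay between -0.0993 and 0.0403 when 1 library was left out, and moved by less than 0.0642, the SD between the medians within replicate numbers, under every other setting. Eif5a2 kept a negative log2 fold change under all 13 alternatives (-0.995 to -0.68, adjusted p from 0.000342 to 0.9998) and passed in 5. Eif4a2 ranged from -0.68 without WT replicate 2 to 0.27 without WT replicate 1. Over 29 genes and 375 refits, 39 other sign changes occurred, with a value within its standard error of 0 before or after. The share of Eif5a in its set was higher in Batf3-/- cells by 0.995 percentage points per length, 1.62 per kilobase of merged exons and 3.27 with no length, in which the longer Eif5a2 weighs more. The cause of the other differences between settings was not tested. Of the tested translation factor genes, Eif4ebp3 alone was too low for its level in WT to be measured.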

Other observations

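The X-linked Eif1ax was higher in replicate 1 than in replicate 2 of both genotypes. It had 129 and 110 CPM in Batf3-/- replicates 1 and 2 and 151 and 111 CPM in WT replicates 1 and 2, while Xist was near 0 in replicate 1 of both genotypes and above 100 CPM in replicate 2 of both. Its autosomal paralog Eif1a had 140 and 121 CPM in Batf3-/- and 149 and 138 CPM in WT replicates 1 and 2. A higher replicate 1 in both genotypes was not particular to the X-linked gene. Autosomal Eif4e had 174 and 147 CPM in Batf3-/- and 227 and 167 CPM in WT replicates 1 and 2. Other autosomal genes went the other way, such as Eif3a (510 and 727 CPM in Batf3-/-, 559 and 750 CPM in WT). The part of the X chromosome difference in the Eif1ax values was not tested.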
